A study of Homo sapiens with 6 samples.

Results

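The HOX cluster genes, 36 of the 17100 transcripts in the deposited table, are described here. They were picked out by their symbols (HOX, the cluster letter A, B, C or D, and the paralog number), with earlier results of these data known. Of the 39 human HOX cluster genes, HOXA6, HOXB1 and HOXD12 were not analysed here. The table held 10 genes of the HOXA cluster on chromosome 7, 9 of the HOXB cluster on chromosome 17, 9 of the HOXC cluster on chromosome 12 and 8 of the HOXD cluster on chromosome 2. RNA was sequenced from MDA-MB-231 cells, an established breast adenocarcinoma cell line, in 3 libraries from vehicle-treated cells and 3 libraries from cells exposed to 1 µM guadecitabine (SGI-110) for 96 h and then left untreated for 24 h. Guadecitabine inhibits DNA methyltransferases, as a dinucleotide from which decitabine is set free. The 3 libraries of a group came from independent experiments on the same cell line, so that they are replicates of this line only. The question addressed was how the transcript levels of the HOX genes differed between vehicle and guadecitabine, by cluster and by position in the cluster.

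HOX genes encode homeodomain transcription factors that pattern the body axis of the embryo. Within a cluster they lie in a row, all transcribed in the same direction, and their order along the chromosome follows the order in which they are expressed from head to tail. Paralog groups 1 to 3 are called anterior here, groups 4 to 8 central and groups 9 to 13 posterior. Polycomb complexes keep the clusters silent and complexes of the MLL family keep them active, while in cancer cells single HOX genes or parts of a cluster are often aberrantly silent or expressed, with or without CpG methylation at their promoters.

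The libraries held 8792127 to 22277442 counts. Vehicle replicate 3 stood apart from the rest, with 20 transcripts at 0 counts against 1593 to 2517 in the other 5 libraries. Over the 2025 transcripts outside the HOX clusters that had 0 counts in vehicle replicates 1 and 2, its median was 7.66 counts per kb of counted exon. All 36 HOX genes had at least 1 count in vehicle replicate 3, also the 13 with 0 counts in both other vehicle libraries. In these 13 genes it had between 0.684 and 58.7 counts per kb with a median of 19.4, and 12 of them were above the median of the other silent transcripts. Results are therefore given with and without this library. All 6 mesenchymal markers of this line that were listed were at 1947 reads per kb or more in every library, among them VIM at 37140 to 53232. After guadecitabine VIM (log2 fold change 0.33) and CD44 (1.18) were higher, AXL (-1.27), CAV1 (-1.19) and LGALS1 (-0.71) were lower, and MSN (-0.11) was not called, nor was VIM without vehicle replicate 3 (adjusted p = 0.0557 in edgeR). Of 7 luminal and HER2 markers, ESR1, PGR and FOXA1 were at or under 1.19 reads per kb in each library except vehicle replicate 3, where they were at 8, 2.7 and 6.17, and CDH1 was at 2.54 to 14. ERBB2 (195 to 370), GATA3 (106 to 220) and EPCAM (107 to 209) were detected in every library, and GATA3 was higher and ERBB2, EPCAM and CDH1 lower after guadecitabine. Of 8 markers of immune and endothelial cells, 7 were in the table, and their summed level was 35.6 to 52.8 reads per kb in vehicle and 41.2 to 48.7 after guadecitabine, with CDH5 at 0 in vehicle replicates 1 and 2. Only 3 of these 7 (LYZ, PECAM1 and VWF) had enough reads to be tested. None of the 3 was called with all libraries, and PECAM1 was called higher without vehicle replicate 3 (log2 fold change 0.77, adjusted p = 0.0191 in edgeR). The part of these markers in the results below was not tested.

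The start regions of 3 members are shown. HOXA13 fell and HOXD1 rose in the comparison of all libraries, and HOXD8, at 0 reads in vehicle replicates 1 and 2, was called only without vehicle replicate 3. The windows are those of RefSeq on GRCh38.p14, with 250 bases before the start and 50 from it, and each was found once on GRCh37, the build of the deposited table. They are written 5′ to 3′ on the strand of the gene, and capitals mark CpG sites, the dinucleotides that DNA methyltransferases modify. HOXA13 lies at chr7:27239661-27239960 on the minus strand, HOXD1 at chr2:177053146-177053445 on the plus strand and HOXD8 at chr2:176994183-176994482 on the plus strand, all on GRCh37.
HOXA13: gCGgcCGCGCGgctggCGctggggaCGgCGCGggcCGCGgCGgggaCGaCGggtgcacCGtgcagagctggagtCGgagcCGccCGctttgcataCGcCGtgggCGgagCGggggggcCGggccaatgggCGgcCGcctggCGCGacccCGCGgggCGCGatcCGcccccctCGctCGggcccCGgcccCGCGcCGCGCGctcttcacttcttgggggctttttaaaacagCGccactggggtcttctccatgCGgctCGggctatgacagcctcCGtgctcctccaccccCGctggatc
HOXD1: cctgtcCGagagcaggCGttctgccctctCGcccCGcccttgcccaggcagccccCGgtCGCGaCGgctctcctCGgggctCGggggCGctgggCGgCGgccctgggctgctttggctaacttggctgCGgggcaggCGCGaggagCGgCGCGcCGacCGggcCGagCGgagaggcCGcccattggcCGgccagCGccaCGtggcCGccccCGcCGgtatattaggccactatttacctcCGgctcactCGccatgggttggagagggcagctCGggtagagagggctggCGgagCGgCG
HOXD8: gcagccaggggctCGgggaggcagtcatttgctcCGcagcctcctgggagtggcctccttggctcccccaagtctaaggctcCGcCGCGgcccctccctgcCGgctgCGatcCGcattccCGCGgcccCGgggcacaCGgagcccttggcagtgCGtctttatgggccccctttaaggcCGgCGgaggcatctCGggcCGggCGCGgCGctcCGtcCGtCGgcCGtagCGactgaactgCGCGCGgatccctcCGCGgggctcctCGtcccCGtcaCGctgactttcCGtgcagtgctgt

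The HOXA13 window held 44 CpG sites, the HOXD1 window 36 and the HOXD8 window 34, against a median of 14 over all 35116 windows. At least as many sites were found in 4.19%, 12.7% and 15.6% of all windows, respectively. The gene that fell and the gene that rose both had a CpG-rich start. A window was listed for 17 of the 36 members, so that no comparison of CpG content between called and uncalled members was made. HOXB2, HOXB3, HOXB4, HOXB5, HOXB6, HOXB7, HOXB8 and HOXB9 were not among the 17. Methylation was not analysed here.

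After guadecitabine the HOXB cluster rose as a contiguous run of genes, from HOXB2 to HOXB7 and again at HOXB9, while HOXD1 rose and HOXA13 fell. Of the 36 members, 21 had enough counts to be tested, 8 were higher and 1 was lower at an adjusted p of 0.05 (edgeR, quasi-likelihood, p-values adjusted by Benjamini-Hochberg over all 13322 genes with enough counts). Over all genes tested, 19.3% were higher and 18.4% lower, 37.7% in all. By cluster, 7 of 8 tested HOXB genes were higher, 1 of 5 tested HOXD genes was higher, 1 of 5 tested HOXA genes was lower, and 0 of 3 tested HOXC genes were called in either direction. With all libraries an unadjusted p under 0.05 was reached by 0 HOXC genes as well, in edgeR and in DESeq2, whereas without vehicle replicate 1 or 2 it was reached by 1, which was lower. A member with few reads in vehicle enters the test only through its reads after guadecitabine, so that these counts describe the tested members and not the whole clusters. Without vehicle replicate 3, 15 members were higher and 1 lower, namely 8 of 8 in HOXB, 4 of 5 higher and 1 lower in HOXA, 3 of 5 in HOXD and 0 of 3 in HOXC, where 22.6% of all 13296 genes tested were higher and 19.4% lower, 41.9% in all. With a background per kb subtracted from vehicle replicate 3, 9 members were higher, 8 of them in HOXB, and 1 was lower, against 22.4% and 19.9% of all genes tested, 42.3% in all. In bulk RNA, more cells with a transcript and more of the transcript per cell cannot be told apart.

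**Figure D1:**
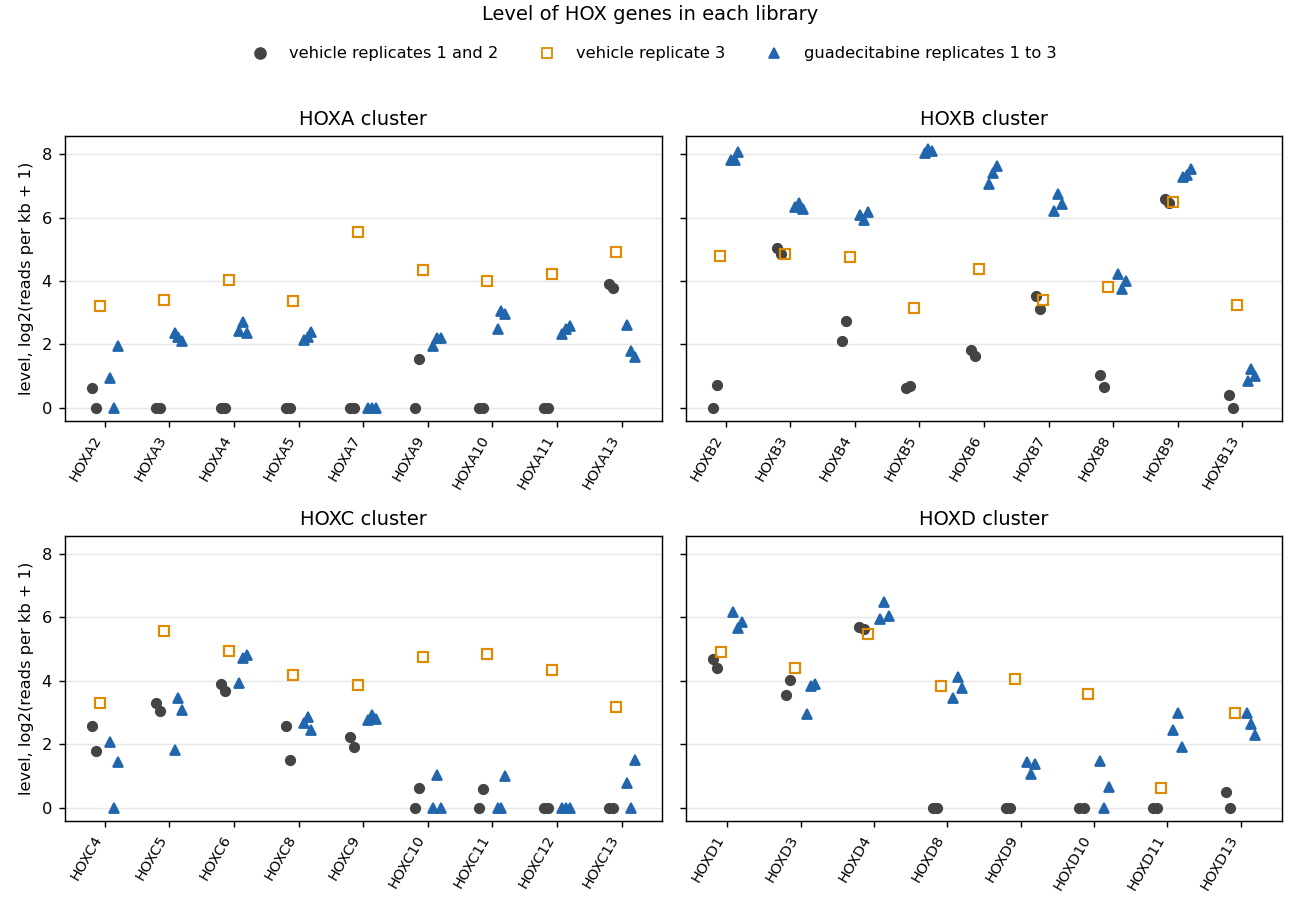
Level of 35 HOX genes in each library, as log2 of reads per kb of counted exon plus 1, in 4 panels by cluster and ordered by paralog number. Circles are vehicle replicates 1 and 2, open squares vehicle replicate 3 and triangles the 3 guadecitabine libraries, and a reader should see the triangles above all vehicle symbols from HOXB2 to HOXB7 and at HOXB9, and the open squares above the circles in the genes that are otherwise at or near 0.

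In reads per kb, a level in TMM-normalized counts per kb of counted exon, the 9 HOXB genes summed to 146, 132 and 229 in vehicle replicates 1, 2 and 3 and to 1014, 1107 and 1175 after guadecitabine. The mean rose from 169 ± 52.5 to 1099 ± 81.1 reads per kb (SD, n = 3), a 6.49-fold difference, or 7.89-fold without vehicle replicate 3. The sum of the HOXD genes was 86.9, 84.2 and 140 in vehicle and 165, 183 and 157 after guadecitabine. Both clusters had every guadecitabine library above every vehicle library. The HOXA genes summed to 14.6, 14.5 and 185 in vehicle and to 38, 36.9 and 40.4 after guadecitabine. The HOXC genes summed to 36.3, 27.1 and 197 in vehicle and to 32, 49.5 and 49.7 after guadecitabine. In HOXA and HOXC the groups overlapped, and vehicle replicate 3 was the highest of the 6 libraries. The HOXB genes made up 51.5% and 51.3% of the summed HOX level in vehicle replicates 1 and 2, 30.5% in vehicle replicate 3 and 80.5% to 82.6% after guadecitabine. These sums are descriptions, and no test was run on them.

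**Figure D2:**
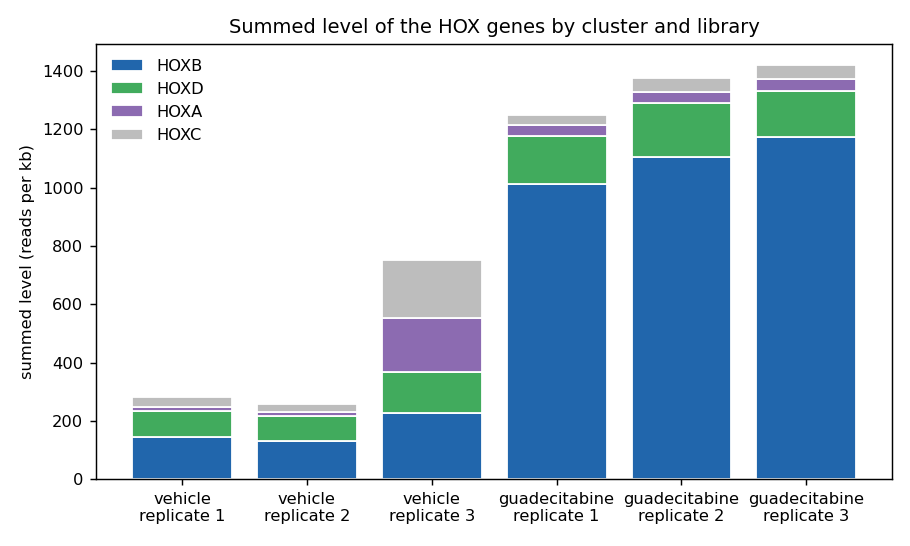
Summed level of the HOX genes in reads per kb (vertical axis, starting at 0) in each of the 6 libraries, stacked by cluster. The HOXB part reaches 1014 to 1175 in the guadecitabine libraries against 132 to 229 in vehicle, and vehicle replicate 3 has HOXA and HOXC parts of 185 and 197 that no other library shows.

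HOXB5, a central gene of the cluster with a role in vascular and gut development, had the largest fold change among the tested HOX genes in the comparison of all libraries. It lies at 46668619 to 46671103 on the minus strand of chromosome 17 and had 1, 1 and 18 reads in vehicle replicates 1, 2 and 3 and 570, 247 and 474 reads after guadecitabine. The level rose from 3.03 ± 4.26 to 275 ± 11.8 reads per kb (SD, n = 3). Its log2 fold change was 6.30 with a standard error (SE) of 0.475 and an adjusted p of 1.70e-05 in edgeR. No vehicle library came near the guadecitabine libraries, which were within 264 to 288 reads per kb. Without vehicle replicate 3 the log2 fold change was 8.73, and from the 2 vehicle reads that remained the ratio of normalized counts was 474 (95% exact interval 131 to 3922, counting error only).

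HOXB2, an anterior gene that acts in hindbrain patterning, was the next in fold change. It had 0, 1 and 55 reads in vehicle and 445, 176 and 429 reads after guadecitabine. In reads per kb the level was 0, 0.659 and 26.5 in vehicle against 225, 224 and 270 after guadecitabine. The lowest guadecitabine library was therefore far above the highest vehicle library, which was vehicle replicate 3. The log2 fold change was 4.57 (SE 0.763, adjusted p = 0.00164 in edgeR) and 9.25 without vehicle replicate 3. From the 1 read left in that case the ratio of normalized counts was 772, with a 95% exact interval of 138 to 30512 for counting error only.

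HOXB6, a neighbour of HOXB5 expressed in limb and blood development, had 2.52, 2.10 and 19.9 reads per kb in vehicle and 133, 167 and 197 after guadecitabine. Its log2 fold change was 4.22 (SE 0.583, adjusted p = 0.000567 in edgeR). HOXB4, known for its part in the expansion of blood stem cells, had 3.28, 5.71 and 26.2 reads per kb in vehicle and 66.9, 60.1 and 72 after guadecitabine, a log2 fold change of 2.45 (SE 0.594, adjusted p = 0.011 in edgeR). Both genes had low but nonzero levels in vehicle replicates 1 and 2, and vehicle replicate 3 was the highest vehicle library in each. With that library left out the log2 fold changes were 6.10 for HOXB6 and 3.89 for HOXB4. Without guadecitabine replicate 3 the value of HOXB4 was 2.40 and its adjusted p was 0.0522 in edgeR.

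HOXB7, HOXB3 and HOXB9 were expressed in all vehicle libraries and rose from there. HOXB7, whose overexpression has been studied in breast cancer, had 10.5, 7.73 and 9.61 reads per kb in vehicle and 72.3, 107 and 85.7 after guadecitabine. Its log2 fold change was 3.23 (SE 0.319, adjusted p = 7.86e-05 in edgeR). HOXB3 had 31.9, 27.8 and 27.8 reads per kb in vehicle and 80.3, 87.2 and 75.6 after guadecitabine, a log2 fold change of 1.47 (SE 0.147, adjusted p = 8.57e-05 in edgeR). In these genes vehicle replicate 3 lay with the other vehicle libraries, and leaving it out gave 3.23 for HOXB7 and 1.43 for HOXB3.

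HOXB9, a posterior gene with a role in mammary gland development, was the HOX gene with the highest level in vehicle. It had 95.9, 87.2 and 89.8 reads per kb in vehicle and 154, 161 and 185 after guadecitabine. This log2 fold change of 0.87 (SE 0.121, adjusted p = 0.000573 in edgeR) was the smallest among the called HOXB genes. The groups did not overlap, and all 3 vehicle libraries lay within 87.2 to 95.9 reads per kb.

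HOXB8, a central gene that can block the differentiation of blood precursors, was the tested HOXB gene without a call. It had 1.04, 0.579 and 13.1 reads per kb in vehicle and 17.8, 12.3 and 15 after guadecitabine, so that vehicle replicate 3 overlapped with the guadecitabine libraries. The log2 fold change was 1.55 (SE 0.924, adjusted p = 0.217 in edgeR) with all libraries and 4.11 (adjusted p = 0.000188 in edgeR) without vehicle replicate 3. With the background subtracted it was 2.19 (adjusted p = 0.033 in edgeR). HOXB13, the most posterior gene of the cluster, which is set apart from HOXB9 by 98.3 kb, had 1, 0 and 33 reads in vehicle and 3, 2 and 3 after guadecitabine and was not tested.

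Along the 83.8 kb from HOXB2 to HOXB9, the log2 fold change had no steady order by position. With all libraries it was 4.57 at HOXB2, 1.47 at HOXB3, 2.45 at HOXB4, 6.30 at HOXB5, 4.22 at HOXB6, 3.23 at HOXB7, 1.55 at HOXB8 and 0.87 at HOXB9. Without vehicle replicate 3 it was 9.25, 1.43, 3.89, 8.73, 6.10, 3.23, 4.11 and 0.86 in the same order. HOXB2 was then above HOXB5, and HOXB8 above HOXB4 and HOXB7. The smallest values among the called genes were those of HOXB9 and HOXB3, the genes with the highest levels in vehicle. The vehicle level is also the denominator of the fold change, so that these orders are not independent. After guadecitabine the order of the mean levels was HOXB5 with 275, HOXB2 with 240, HOXB6 and HOXB9 with 166 each, HOXB7 with 88.4, HOXB3 with 81, HOXB4 with 66.3 and HOXB8 with 15 reads per kb. HOXB5 and HOXB2 overlapped between libraries, as did HOXB6 and HOXB9, HOXB7 and HOXB3, and no HOXB8 library reached the lowest HOXB4 library.

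**Figure D3:**
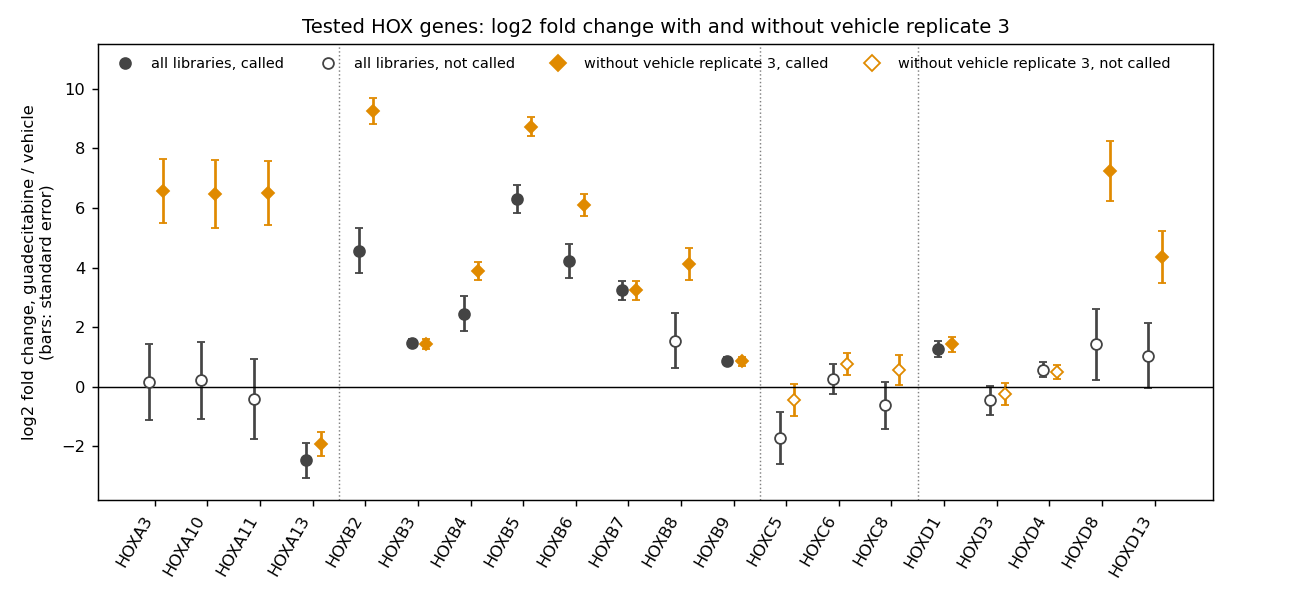
Log2 fold change of guadecitabine over vehicle with its standard error (vertical axis) for 20 tested HOX genes in cluster order, with all libraries (circles) and without vehicle replicate 3 (diamonds), filled where the adjusted p was under 0.05. HOXB3, HOXB7, HOXB9 and HOXD1 have nearly the same value in both, HOXA3, HOXA10, HOXA11 and HOXD8 go from near 0 or below 2 to above 6, and the 3 HOXC genes have open symbols in both.

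HOXA13, the most posterior gene of the HOXA cluster, which acts in limb and urogenital development, was the member that fell. It lies at 27236499 to 27239725 on the minus strand of chromosome 7 and had 37, 30 and 95 reads in vehicle and 16, 3 and 5 after guadecitabine. In reads per kb these were 14, 12.6 and 29.2 in vehicle and 5.15, 2.43 and 2.01 after guadecitabine. All guadecitabine libraries were below all vehicle libraries. The log2 fold change was -2.47 (SE 0.585, adjusted p = 0.00983 in edgeR) with all libraries and -1.93 (adjusted p = 0.00348 in edgeR) without vehicle replicate 3. Without guadecitabine replicate 3 the value was -2.22 and the adjusted p was 0.0544 in edgeR.

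The other HOXA genes were at or near 0 in vehicle replicates 1 and 2, and most had a few reads after guadecitabine. HOXA3, an anterior gene with a role in the development of the thymus, had 0, 0 and 41 reads in vehicle and 17, 6 and 11 after guadecitabine. The guadecitabine libraries lay above vehicle replicates 1 and 2 and below vehicle replicate 3. HOXA10 and HOXA11, posterior genes known for their part in the development of the uterus, had 0 reads in vehicle replicates 1 and 2, 38 and 60 in vehicle replicate 3, and 6 to 13 after guadecitabine.

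With all libraries the log2 fold changes of these 3 genes were 0.17 for HOXA3, 0.22 for HOXA10 and -0.42 for HOXA11, with standard errors of 1.28 to 1.34, and none was called. When vehicle replicate 3 was left out all 3 were called, with adjusted p-values of 0.00109 to 0.00173 in edgeR. With no reads in the vehicle libraries that remained, they entered this test only through their reads after guadecitabine, so that only a rise could be called. Against a floor of 3 reads in each of the vehicle libraries that remain, HOXA3 was at least 4.10-fold, HOXA10 at least 4.01-fold and HOXA11 at least 3.97-fold higher. With the background subtracted from vehicle replicate 3 they were not called, with adjusted p-values of 0.307 to 0.984 in edgeR. That background was 7.66 counts per kb, whereas vehicle replicate 3 had 12.4 at HOXA3, 19.4 at HOXA10 and 22.6 at HOXA11. Part of its reads at these genes therefore stayed in that comparison. HOXA4 and HOXA5 had the same pattern at fewer reads, with 0 in vehicle replicates 1 and 2 and 3 to 8 after guadecitabine, and were not tested.

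HOXA7 had 0 reads in each library except vehicle replicate 3, which had 30 reads, and is therefore listed with 45.3 reads per kb in that library only. The counted exons of HOXA7 and HOXA9 were 511 and 563 bp long, against 2047 and 2057 bp of exon in the GENCODE annotation, so that most of their sequence was not counted. HOXA9, a driver of leukemia, had 0, 1 and 14 reads in vehicle and 2, 1 and 2 after guadecitabine. HOXA2 had 1, 0 and 19 reads in vehicle and 2, 0 and 5 after guadecitabine. These 3 genes had too few reads to be tested.

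In the HOXD cluster, HOXD1, the anterior gene at its 3′ end, rose. It had 25, 20.2 and 29.1 reads per kb in vehicle and 71.7, 50 and 57.4 after guadecitabine, a log2 fold change of 1.27 (SE 0.26, adjusted p = 0.00475 in edgeR). HOXD4 had the highest mean level of the cluster in each group, though HOXD1 was higher in guadecitabine replicate 1. It had 50.7, 48.9 and 43.5 reads per kb in vehicle and 61.2, 89.5 and 64.7 after guadecitabine. The groups of HOXD4 did not overlap either, but its log2 fold change of 0.57 (SE 0.25, adjusted p = 0.101 in edgeR) did not pass the threshold. HOXD3, which lies between these genes, had 10.8, 15.2 and 20.2 reads per kb in vehicle and 6.69, 13.3 and 14.1 after guadecitabine, with a log2 fold change of -0.46 (SE 0.479, adjusted p = 0.485 in edgeR).

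The HOXD genes from HOXD8 to HOXD13 were at or near 0 in vehicle replicates 1 and 2. HOXD8 had 0, 0 and 28 reads in vehicle and 20, 13 and 20 after guadecitabine. HOXD13, a gene of digit development, had 1, 0 and 21 reads in vehicle and 20, 6 and 9 after guadecitabine. Both overlapped with vehicle replicate 3 and were not called with all libraries, with log2 fold changes of 1.43 and 1.04 (adjusted p = 0.379 and 0.487 in edgeR). Without that library both were called, with adjusted p-values of 0.000424 and 0.00251 in edgeR, and HOXD8 was at least 6.95-fold higher than a floor of 3 reads per library. Both then entered the test only through their reads after guadecitabine, so that only a rise could be called. HOXD11 had 0, 0 and 1 reads in vehicle and 8, 5 and 4 after guadecitabine, so that its groups did not overlap, but it had too few reads to be tested. HOXD9 and HOXD10 had at most 4 reads in any library other than vehicle replicate 3, where they had 38 and 26.

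In the HOXC cluster no tested gene was called. HOXC6, a gene expressed in the developing mammary gland, had the highest mean level of the cluster over the 6 libraries, though HOXC5 was higher in vehicle replicate 3 and in the vehicle mean. HOXC6 had 13.8, 11.8 and 29.6 reads per kb in vehicle and 14.4, 25.5 and 27.3 after guadecitabine (log2 fold change 0.26, SE 0.513, adjusted p = 0.724 in edgeR). HOXC5 had 8.86, 7.21 and 46.5 reads per kb in vehicle and 2.51, 10.1 and 7.52 after guadecitabine (log2 fold change -1.72, SE 0.858, adjusted p = 0.146 in edgeR). HOXC8 had 4.99, 1.85 and 17.2 reads per kb in vehicle and 5.31, 6.23 and 4.41 after guadecitabine (log2 fold change -0.63, SE 0.783, adjusted p = 0.559 in edgeR). Vehicle replicate 3 was the highest library in each of these 3 genes, and the groups overlapped. Without it the values were 0.75, -0.44 and 0.56 in the same order, and none was called.

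The posterior genes HOXC10, HOXC11, HOXC12 and HOXC13 had 64, 74, 21 and 23 reads in vehicle replicate 3 and between 0 and 4 reads in each other library. HOXC12 had 0 reads in all 5 of those. HOXC4 had 9, 4 and 20 reads in vehicle and 7, 0 and 3 after guadecitabine, and HOXC9 had 6, 4 and 27 in vehicle and 11, 5 and 9 after guadecitabine. None of these 6 genes was tested. HOXC4 and HOXC6 share annotated exons. HOXC5 shares exon sequence with further annotated transcripts on its strand, which also lie over exons of HOXC4 and HOXC6 or of HOXC10. The reads of these genes can therefore not be fully told apart.

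By position, 3 of 6 tested anterior genes, 4 of 10 tested central genes and 1 of 5 tested posterior genes were higher, and 1 posterior gene was lower, against 19.3% higher and 18.4% lower over all genes tested. Without vehicle replicate 3 the numbers higher were 5 of 6, 6 of 10 and 4 of 5, and 1 posterior gene was lower, against 22.6% and 19.4%. Of the 8 members that were higher, 7 were HOXB genes, and of the 13 tested members outside HOXB the anterior gene HOXD1 was higher and the posterior gene HOXA13 lower. With vehicle replicate 3 left out, 3 of 4 anterior, 1 of 5 central and 3 of 4 posterior genes outside HOXB were higher. Members with few or no reads in the vehicle libraries that remained entered this test only through their reads after guadecitabine, where only a rise can be called. The counts without vehicle replicate 3 can therefore not be read as an effect of position. With all libraries, HOXB2, HOXB4, HOXB5 and HOXB6 also had few reads in vehicle replicates 1 and 2 and passed the filter only through guadecitabine. The counts with all libraries can therefore not be read in that way either. Groups that did not overlap were found in 10 members with the guadecitabine libraries on top (7 in HOXB and 3 in HOXD) and in 1 member with the vehicle libraries on top (in HOXA), against 21.1% and 20.9% of all 17100 transcripts. In the 5 libraries other than vehicle replicate 3 these were 24 and 1 of the 36 members, against 30.2% and 25.4%. Of the 36 members, 13 had 0 reads in both vehicle libraries that remained. The groups of these 13 could separate only with guadecitabine on top, already at 1 read per library, so that 24 against 1 describes no general rise. The two-sided exact permutation test of a single gene cannot go below p = 0.1 with 3 against 3 libraries, which each of the 11 genes without overlap reached.

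Antisense transcripts overlap annotated exons of 16 of the 36 members, among them 6 of the 9 called ones. HOXB-AS1 lies over exons of HOXB2 and HOXB3, HOXB-AS3 over exons of HOXB3, HOXB5 and HOXB6, HOTTIP over an exon of HOXA13 and HAGLR over exons of HOXD1. No source used here states that the counting used strand, so that reads from a HOX gene and its antisense partner cannot be told apart in these counts. The called genes HOXB4, HOXB7 and HOXB9 have no annotated antisense exon over theirs. HOXB4 and HOXB6 share exon sequence with HOXB3 transcripts on the same strand.

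The genes around the clusters were compared in windows of 1000 kb on each side of the middle of each cluster. Around HOXB, 7 of 27 tested neighbours were higher and 4 lower, with a median log2 fold change of 0.06. The nearest tested neighbours on the posterior side, TTLL6, CALCOCO2 and ATP5G1, had log2 fold changes of 0.57, 0.29 and 0.31 and were not called, though TTLL6 was called without vehicle replicate 3 (1.33, adjusted p = 0.0273 in edgeR). On the anterior side the nearest tested neighbour SKAP1, an adaptor of T cell receptor signalling, rose. It had 2.42, 0.671 and 9.82 reads per kb in vehicle and 34.5, 28.5 and 28.2 after guadecitabine, a log2 fold change of 2.74 (SE 0.745, adjusted p = 0.0182 in edgeR). Further out on the posterior side, GNGT2 and IGF2BP1, named after their values were seen, rose too. Their log2 fold changes were 4.79 and 3.60, at 572.7 and 391.1 kb from the middle of the cluster. Around HOXA 2 of 8 tested neighbours were higher and 1 lower, around HOXC 6 of 30 were higher and 13 lower, and around HOXD 1 of 3 was lower and the others were not called. Over all genes tested, 19.3% were higher and 18.4% lower. Without vehicle replicate 3, 7 of 27 neighbours were higher and 3 lower around HOXB, and 2 of 8 were higher and 2 lower around HOXA. Around HOXC 7 of 30 were then higher and 12 lower, and around HOXD 2 of 3 were lower, against 22.6% and 19.4% over all genes.

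**Figure D4:**
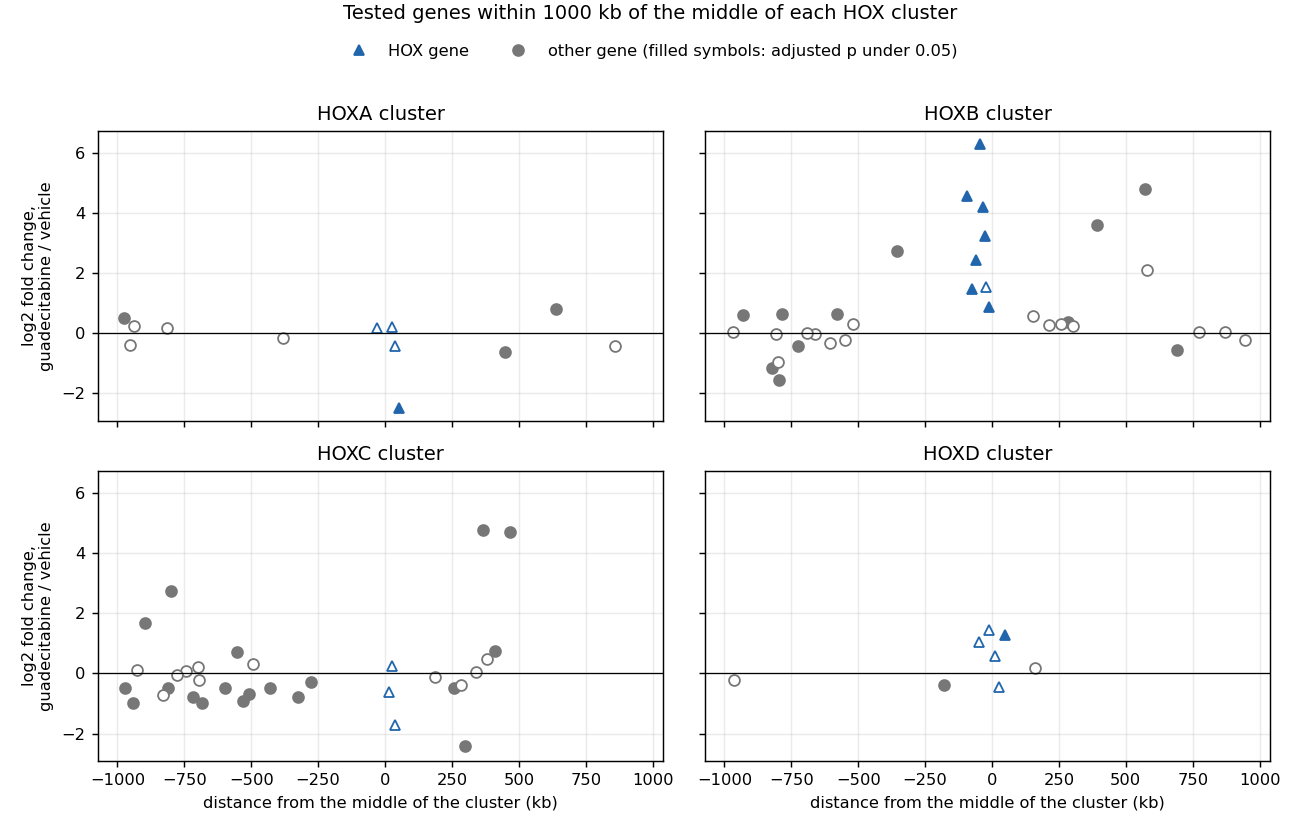
Log2 fold change of guadecitabine over vehicle (vertical axis) against the distance in kb from the middle of the cluster, for all tested genes within 1000 kb, with all 6 libraries. Triangles are HOX genes, circles other genes and filled symbols have an adjusted p under 0.05. The HOXB panel shows the column of HOX genes from 0.87 to 6.30 with SKAP1 at 2.74 on its left. On its right are TTLL6, CALCOCO2 and ATP5G1 close to 0 and, further out, IGF2BP1 at 3.60 and GNGT2 at 4.79.

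Of the 20 tested genes in a list of genes flanking the 4 clusters, 2 were higher and 6 lower, with a median log2 fold change of -0.18 against 0.02 over all genes tested. The counts of this and the next lists stand against 19.3% higher and 18.4% lower over all genes tested, or 22.6% and 19.4% without vehicle replicate 3. Besides SKAP1, the values furthest from 0 were those of NFE2 (-2.40), TAX1BP1 (0.81), ATP5G2 (-0.77) and HIBADH (-0.63). NFE2, an erythroid transcription factor gene near HOXC, had 13, 8.16 and 41.3 reads per kb in vehicle and 3.85, 3.63 and 4.2 after guadecitabine. Vehicle replicate 3 was again the highest library, and without it the log2 fold change was -1.42.

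PBX, MEIS and PKNOX proteins bind DNA together with HOX proteins, and of their 9 genes 1 was higher and 1 lower. MEIS3 rose from 12.3, 13.7 and 20 to 36.6, 41.3 and 43.8 reads per kb, a log2 fold change of 1.39 (SE 0.308, adjusted p = 0.00696 in edgeR). The groups of MEIS3 did not overlap. With vehicle replicate 3 left out, PBX4 and PKNOX2 were called higher as well, so that 3 were higher and 1 lower.

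Of 18 genes of the MLL complexes and factors that work with them, 4 were higher and 2 lower, with a median log2 fold change of -0.09, and 3 were higher and 3 lower without vehicle replicate 3. PSIP1, which tethers MLL to chromatin, fell by 0.83 on the log2 scale. KDM6B and KDM6A, which remove the Polycomb mark from histone H3, had log2 fold changes of 0.75 and 0.42, and the elongation factor genes ELL and AFF1 had 0.75 and 0.61. Of 30 Polycomb genes, 7 were lower, a share near the 18.4% of all genes tested, and the others were not called, with a median of -0.04, and 1 was higher and 7 lower without vehicle replicate 3. The largest decreases were those of the chromobox genes CBX7 (-0.77), CBX6 (-0.72) and CBX2 (-0.56), the methyltransferase gene EZH1 (-0.65) and PHF19 (-0.48).

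Homeobox genes outside the clusters were also compared. Of 35 tested genes of this list, 5 were higher and 3 lower, with a median log2 fold change of -0.10, and 12 were higher and 4 lower without vehicle replicate 3. Genes with few or no reads in vehicle replicates 1 and 2, such as GBX2, DLX1 and LHX1, entered the latter test only through guadecitabine. For these genes only a rise could be called. MSX1, a gene of craniofacial development, had 0.492, 0 and 13.2 reads per kb in vehicle and 59.8, 58.8 and 77.7 after guadecitabine, a log2 fold change of 3.71 (SE 0.879, adjusted p = 0.0098 in edgeR). NKX2-5, the cardiac homeobox gene, had a log2 fold change of 3.32, PRRX2 had 2.84, and SIX2 had 1.54. NKX3-2, a gene of skeletal development, fell from 76.5, 81 and 85.5 to 29.6, 32.7 and 29.3 reads per kb, a log2 fold change of -1.41 (SE 0.169, adjusted p = 0.00024 in edgeR). In MSX1, as in the HOX genes that were nearly silent, vehicle replicate 3 was the highest vehicle library. No transcript on a list of non-coding RNAs of the HOX clusters was in the table, so that these were not analysed here.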

How the data were processed

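RNA of MDA-MB-231 cells was sequenced in 3 vehicle and 3 guadecitabine libraries, assigned to groups by their titles. The authors aligned reads to hg19 with STAR (2.3.1z in the submitters' processing notes), used iRNA-seq to count exonic reads per RefSeq transcript, and deposited these raw counts, which total at least 11 per transcript. The deposited regularized log values and the columns of the authors' own DESeq2 comparison (fold changes, standard errors, p-values) were not used. The other deposited quantity is the counted exon length in bp. Read length, strand and multi-mapping settings are not given in the sources used here.

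Counts were tested in R 4.3.3 with edgeR 4.0.16 (TMM, filterByExpr with a minimum count of 10, quasi-likelihood test, Benjamini-Hochberg adjustment, threshold 0.05), with no block. Standard errors came from the F statistic. The 13322 genes tested did not include members with few reads. Reads per kb are TMM-normalized counts scaled to the mean total of 17911210 and divided by the exon length. The fit was also run on simulated counts with known changes. These held no raised background in a vehicle library, so that the simulation does not bear on the calls of nearly silent genes. Floors of 3 counts and 95% exact intervals cover counting error only. Figures and summaries were made with Python 3.11.15, and exon overlaps used GENCODE release 44 on GRCh37. Deposited starts were read as counted from 0, since they lie 1 base before the annotated starts.

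The counts cover all members. Values of 1 member and of some genes of the other lists are not reported here. Values per library are given for called members and the 3 with the highest level in each cluster, for others where a result turns on them, and of other lists for up to 5 called genes with the largest change. The members and lists were chosen with earlier results of these data known. Alternatives were a replicate block, DESeq2 1.42.0, its size factors, library totals, 2 other filters, a background of 7.66 counts per kb subtracted from vehicle replicate 3, and each library left out. Cluster, position and list counts without vehicle replicate 3 were added after seeing the data.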

Additional observations from a re-analysis of the deposited data

How the results depend on the processing

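The 9 called members kept their direction under all 13 alternatives that tested them, and their call in all but 2 cases (HOXA13 and HOXB4 without guadecitabine replicate 3). The number of members higher was 8, between 7 and 15 with each library left out, and 4 with a filter of at least 10 counts in every sample, where 7 members were tested. The number lower was 1, between 0 and 1 with each library left out, and 0 with that filter, since HOXA13 was not tested there. Over all genes, 2576 were higher and 2446 lower, between 1706 and 3002 higher and between 1629 and 2575 lower with each library left out, lowest without guadecitabine replicate 3. With the replicate number as a block, 8 members were higher and 1 lower, and 2424 genes were higher and 2230 lower. Same-numbered libraries had correlations of their deviations of -0.05, 0.049 and -0.037, against -0.061 to 0.063 between libraries of different number. Whether same-numbered libraries came from the same experiment is not given in the sources used here. With 3 libraries per group these correlations cannot decide it. Among the members without a call whose values are given here, the sign turned when a library was left out in HOXA3 (-0.38 to 6.57), HOXA10 (-0.34 to 6.46), HOXA11 (-0.97 to 6.50) and HOXC8 (-1.07 to 0.56), and in HOXA11 also with the background subtracted (0.04) and with the replicate block (1.48). The positive end of each range is without vehicle replicate 3. The cause was not tested. The depth of 8792127 counts in guadecitabine replicate 2 limits what can be said of members with under 10 reads.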
